A study of Mus musculus with 15 samples.

Results

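Nrp1, Ikzf2 and Ikzf4 are 3 genes used as markers of regulatory T cells (Treg) that form in the thymus, and their levels were followed in splenic Treg of mice with altered Notch signalling. Each gene was measured by the only transcript cluster annotated to it alone, so the 3 clusters stood for 3 of the 19752 genes measured. Cells of 6-week-old males were sorted on CD3, TCRbeta, CD4 and the GFP made from the Foxp3 locus, after cells bearing CD8, B220, CD11b, CD11c or Gr1 had been gated out. Each array carried amplified RNA from 40000 to 50000 cells pooled from several mice, on the Affymetrix Mouse Gene 1.0 ST platform, whose probes lie along the exons of each gene.

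The 15 arrays fell into 4 groups, all of which carried the Foxp3EGFPCre allele, so that Cre recombinase and GFP were made in Foxp3-expressing cells of every group, controls included. The N1c_RBPJdel group (Foxp3EGFPCreR26N1c/N1cRBPJ∆/∆, 3 arrays) carried both the R26N1c allele, which after Cre action gives the active, intracellular form of Notch1, and the deletion of Rbpj. The N1c group (Foxp3EGFPCreR26N1c/N1c, 4 arrays) carried the R26N1c allele without the deletion. The RBPJdel group (Foxp3EGFPCreRBPJ∆/∆, 4 arrays) carried the deletion without R26N1c. The control group (Foxp3EGFPCre, 4 arrays) carried the Cre allele alone. A FACSAria was used to sort the N1c_RBPJdel cells and a MoFlo for the other 3 groups, so sorter and genotype cannot be told apart in comparisons of that group with another. Replicates are named by the numbers in the labels.

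The intracellular part of Notch1 binds the DNA-binding protein RBPJ, and together they switch on target genes such as Hes1, which encodes a repressor. Nrp1 encodes neuropilin 1, a surface co-receptor for class 3 semaphorins and vascular endothelial growth factor (VEGF) that works with plexins and VEGF receptors. Ikzf2 and Ikzf4 encode Helios and Eos, zinc finger transcription factors of the Ikaros family. In mice Nrp1 and Helios are high on Treg of thymic origin, and Eos binds Foxp3 and recruits corepressors to silence cytokine genes.

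Values are array intensities after RMA, a standard summary of Affymetrix probes, and changes are differences of mean log2 intensity with the standard error (SE) of the limma fit and p-values adjusted over all 19752 genes. A gene was called at an adjusted p under 0.05. Rbpj had a geometric mean of 209 in N1c_RBPJdel, 521 in N1c, 267 in RBPJdel and 497 in control arrays, and Hes1 lay at 78.3, 626, 65.2 and 65.6 in the same order of groups. The Rbpj values are those of its brightest transcript cluster. With the mean of its clusters, Rbpj was not called in RBPJdel against control (adjusted p = 0.320) or N1c against RBPJdel (adjusted p = 0.0682). Notch1 lay at 1008, 1252, 1326 and 1227 and was called in none of the 7 comparisons. Foxp3, which defines Treg, lay at 4219.7, 4342, 5333 and 4979.5 and was called in none of the 7 comparisons. The defining markers of Treg and T cells were far above the array medians of 107.1 to 117.2. All 5 markers of conventional dendritic cells lay below the array median on all 15 arrays, as did 5 of 6 measured B cell markers. Neither of the 2 CD8 T cell markers did, and Cd8b1 had geometric means of 553 in N1c_RBPJdel, 444 in N1c, 584 in RBPJdel and 513 in control arrays. Of 5 natural killer (NK) cell markers 3 did. Another, Nkg7, lay at 873, 951, 599 and 432 in that order and was called higher in N1c than in control (log2 difference 1.14). In such sorted populations a smaller share of cells with a transcript and less of it per cell cannot be told apart.

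The RefSeq promoter table (GRCm38.p6) held 1 of the 3 genes, Nrp1, whose transcript cluster (10576639) lies on chromosome 8 within the gene span 128358591 to 128505476. The Nrp1 promoter is shown because it was the only one held, and it was searched for letters bound by RBPJ and by the repressors of the HES and HEY families. The window lies on the plus strand at chr8:128358823-128359122 and runs from 250 bases before the transcript start used to 50 bases after it. This start lies inside the gene span given above, so the whole window does too. Bases ahead of the span, before 128358591, were not searched. Motif matches are in capitals.
Nrp1: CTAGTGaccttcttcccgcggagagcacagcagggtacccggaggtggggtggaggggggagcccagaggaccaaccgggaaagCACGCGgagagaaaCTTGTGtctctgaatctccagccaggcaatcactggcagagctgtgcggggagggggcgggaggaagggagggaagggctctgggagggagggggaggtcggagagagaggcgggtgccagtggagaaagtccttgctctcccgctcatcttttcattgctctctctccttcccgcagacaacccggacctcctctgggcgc
Both strands were searched for TGGGAA (an RBPJ core), CACGCG (a class C E-box), CACGTG (an E-box) and CACNAG (an N-box), and the matches do not overlap. CACGCG was found once, 166 bases before the start, and 9.27% of the 32851 promoters in the table hold it. CACNAG was found on the minus strand 250 and 152 bases before the start, and 42.5% of promoters hold it. TGGGAA, held by 25.6% of promoters, and CACGTG, held by 7.15%, are not in these letters. These matches describe the letters of the window and were not tested for binding.

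Nrp1 fell in Treg with active Notch1 that kept Rbpj and stood near the control level where Rbpj was deleted as well. Its intensities were 427, 514, 509 and 403 on the N1c arrays (replicates 1, 2, 4 and 5), against 1569, 1458, 1279 and 1163 on the control arrays (replicates 2, 3, 4 and 5). All 4 N1c arrays were below all 4 control arrays, with a wide gap between the groups. Arrays of N1c were all lower than those of control for 2.83% of genes.

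Nrp1 averaged 463 ± 56.8 in N1c and 1367 ± 181 in control arrays (SD, n = 4 each), which is 2.95-fold lower in N1c. The log2 difference was -1.56 ± 0.12 (SE, 95% interval -1.82 to -1.30, adjusted p = 4.17e-07). Nrp1 and Ikzf4 were the 2 members called lower in this comparison, where 0.714% of all genes were called lower and 1.65% in either direction. With the replicate number as a block, in a fit of the 2 groups alone, the Nrp1 difference was -1.49 (adjusted p = 0.000163).

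With Rbpj deleted, active Notch1 was not accompanied by a called change of Nrp1. Its intensities were 1206, 1502 and 1352 on the N1c_RBPJdel arrays (replicates 1, 2 and 3), and on the RBPJdel arrays they were 1336, 1482, 1648 and 1729 (replicates 1 to 4). The N1c_RBPJdel values overlapped those of RBPJdel and of control, and all 3 lay above the N1c arrays by more than the whole spread of either group. N1c_RBPJdel arrays were all higher than N1c arrays for 7.95% of genes.

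Against N1c, Nrp1 was 2.93-fold higher in N1c_RBPJdel arrays, at a mean of 1354 ± 148 (SD, n = 3), against 463 ± 56.8 in N1c arrays (n = 4). The log2 difference was 1.55 ± 0.13 (SE, 95% interval 1.27 to 1.83, adjusted p = 1e-06), in a comparison in which 9.23% of genes were called and 4.58% were called higher. Against control the difference of N1c_RBPJdel was -0.01 ± 0.13 (95% interval -0.29 to 0.27, adjusted p = 0.969), where 8.9% of genes were called. Against RBPJdel it was -0.19 (95% interval -0.47 to 0.08, adjusted p = 0.415), where 2.29% were called. Neither of these 2 differences was called, and their intervals leave room for a change of up to 0.29 and 0.47 downwards.

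The deletion of Rbpj without active Notch1 was not accompanied by a called change of any of the 3 genes, in a comparison in which 0.111% of genes were called. Nrp1 averaged 1549 ± 175 in RBPJdel and 1367 ± 181 in control arrays (SD, n = 4 each), a log2 difference of 0.18 (95% interval -0.07 to 0.44, adjusted p = 0.845). N1c against RBPJdel gave -1.74 ± 0.12 for Nrp1 (SE, n = 4 each, adjusted p = 4.98e-08), where 2.5% of genes were called and 1.05% were called lower. All N1c arrays were below all RBPJdel arrays, as was the case for 4.37% of genes.

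The order of Nrp1 levels was highest in RBPJdel, then control, N1c_RBPJdel and N1c. Only the last step in that order, that between N1c_RBPJdel and N1c, was past the threshold. The N1c effect itself was compared with and without the deletion by an interaction term, (N1c_RBPJdel minus RBPJdel) minus (N1c minus control). It was 1.37 ± 0.18 for Nrp1 (SE, 95% interval 0.99 to 1.74, adjusted p = 0.000974), and 0.84% of genes were called for it, 0.319% with a positive term. The term includes N1c_RBPJdel, the only group sorted on a FACSAria, so sorter and genotype cannot be told apart in it. Under the other settings the 7 Nrp1 results gave 187 values, all on the side of the threshold given here, with no called value turned in direction.

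**Figure D1:**
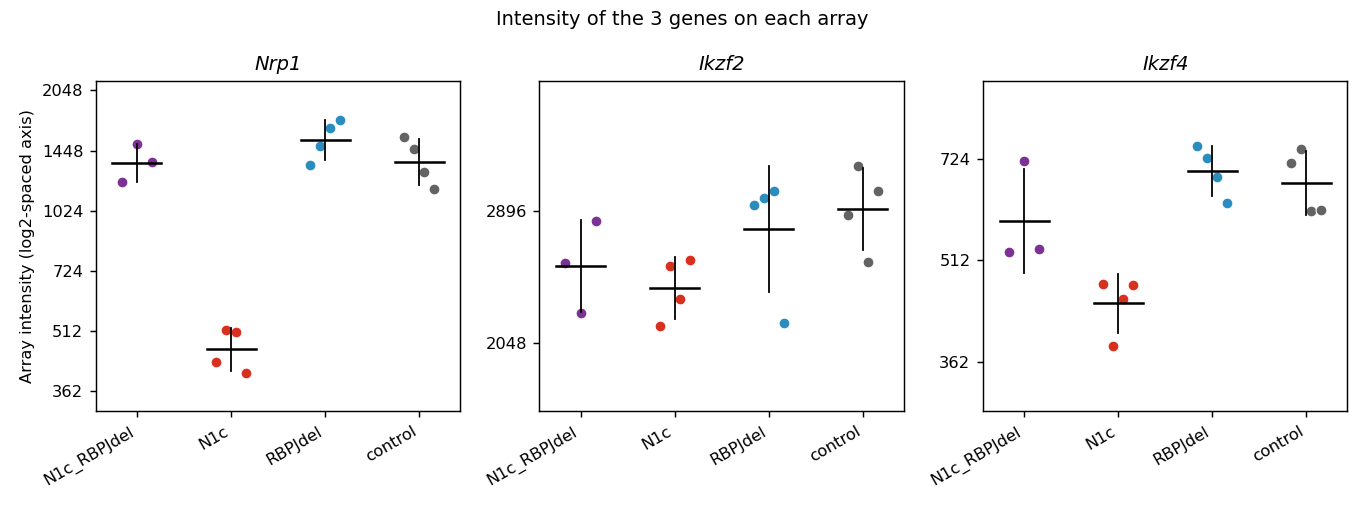
Intensity of Nrp1, Ikzf2 and Ikzf4 on each of the 15 arrays (points, log2-spaced axes that differ between panels), with the geometric mean (horizontal line) and 1 SD of log2 values on each side (vertical line), for N1c_RBPJdel (n = 3), N1c, RBPJdel and control (n = 4 each). The N1c arrays of Nrp1 lie between 403 and 514 and all other arrays at 1163 or above, while the Ikzf2 groups overlap and Ikzf4 lies between the 2 patterns.

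Markers of 2 other cell types known to carry Nrp1 were followed beside it. Of 8 endothelial markers, 7 were below the array median on all 15 arrays. The summed intensity of all 8 was 1223 to 1274 in N1c_RBPJdel, 1173 to 1454 in N1c, 1338 to 1695 in RBPJdel and 1531 to 1711 in control arrays. Of the 4 plasmacytoid dendritic cell markers measured, Siglech and Spib were below the array median throughout, and the sums were 505 to 533, 478 to 584, 560 to 683 and 507 to 635 in the same order of groups. The endothelial sum was lower in N1c than in control without overlap, through Pecam1, the 1 endothelial marker above the array median. Pecam1 lay at 773 to 1047 in N1c and 1113 to 1317 in control arrays (log2 difference -0.40 ± 0.11, adjusted p = 0.0763). The other 7 summed to 381 to 407 in N1c and 393 to 420 in control arrays, which overlapped, and the part of these markers in the Nrp1 difference was not tested.

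Summed markers of erythroid cells were higher in N1c_RBPJdel arrays, at 714 to 1552, than in N1c arrays, at 503 to 605, and Car1, a carbonic anhydrase of erythroid cells, had intensities of 852, 400.0 and 137 on N1c_RBPJdel replicates 1, 2 and 3. Markers of B cells and neutrophils were also higher in N1c_RBPJdel than in N1c arrays without overlap, with sums of 631 to 938 against 506 to 556 for B cells and of 484 to 563 against 348 to 455 for neutrophils. In this comparison 4.58% of all genes were called higher. Called higher were 3 of 6 B cell markers (Ms4a1 by 0.97, Cd79a by 1.05 and Ebf1 by 0.46) and 2 of 7 neutrophil markers (S100a9 by 0.90 and Ngp by 1.08). So were 2 of 7 erythroid markers and 1 of 6 myeloid markers (Lyz2 by 0.92). The same held for 1 of 5 conventional dendritic cell markers (Clec9a by 0.76) and 1 of 5 NK cell markers (Klrd1 by 0.46). In these lists 0 markers were called lower. Differences were all positive for B cell and neutrophil markers. They reached down to -0.80 for myeloid (Cd68), -0.17 for conventional dendritic cell, -0.12 for NK cell and -0.06 for erythroid markers. Ms4a1, Cd79a, Ebf1, Ngp, Clec9a and Klrd1 lay below the array median on every array, unlike S100a9 and Lyz2. Whether such cells were present, and their part in the results, was not tested. With N1c_RBPJdel replicate 2 as the only array of its group, Nrp1 was 1.70 above N1c (adjusted p = 0.000243). Without replicate 1, the array highest in Car1, the difference was 1.63 (adjusted p = 7.09e-06).

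Among all 19752 genes none had a larger fall than Nrp1 in N1c against control. Next to it stood Ms4a4c, a membrane protein of the Ms4a family, at -1.52. By size of change in either direction Nrp1 ranked 27, and by p it ranked 15. The first place depended on the setting: between 1 and 4 genes fell further with array weights, with either replicate block, or without N1c replicate 1 or 4 or control replicate 2, 3 or 4, and in each of these at most 1 of them was called. In N1c against RBPJdel 3 genes had a larger fall.

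**Figure D2:**
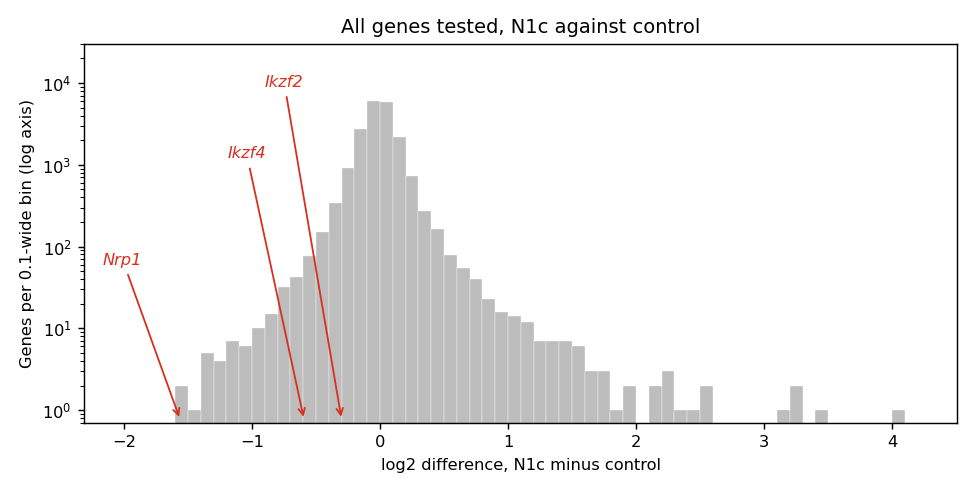
Number of genes (log axis) in each bin of the log2 difference between N1c and control over 19752 genes, with arrows at the 3 members. Nrp1, at -1.56, lies at the low end of all genes, Ikzf4, at -0.59, in the lower tail, and Ikzf2, at -0.30, nearer the bulk.

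Ikzf4, on chromosome 10 (transcript cluster 10373502, gene span 128630839 to 128669671 of GRCm38.p6), showed a smaller fall in N1c arrays. Its intensities were 473, 382, 449 and 471 on the N1c arrays (replicates 1, 2, 4 and 5), against 714, 749, 607 and 607 on the control arrays (replicates 2 to 5). The groups did not overlap, and N1c arrays were all lower than control arrays for 2.83% of genes. Ikzf4 averaged 444 ± 42.4 in N1c and 669 ± 73.6 in control arrays (SD, n = 4 each), a log2 difference of -0.59 ± 0.12 (SE, 95% interval -0.84 to -0.34, adjusted p = 0.0113). This is 1.51-fold lower in N1c.

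The call of Ikzf4 in N1c against control rested on single arrays and on the fit. Same-numbered arrays of these 2 groups deviated together, and with the replicate number as a block in a fit of both groups the difference was -0.57 (adjusted p = 0.0562). Without control replicate 2 it was -0.56 (adjusted p = 0.0506), and without control replicate 3 it was -0.54 (adjusted p = 0.0556). Over all 27 other settings it lay between -0.72 and -0.52. Against RBPJdel, whose arrays read 755, 726, 680 and 622, Ikzf4 was lower in N1c by a log2 difference of -0.65 ± 0.12 (SE, n = 4 each, adjusted p = 0.00365), a call that all 27 settings gave.

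In N1c_RBPJdel arrays Ikzf4 had intensities of 526, 719 and 531 (replicates 1, 2 and 3), each above every N1c array, as was the case for 7.95% of genes. Each also lay within or below the range of the control and RBPJdel arrays. The log2 difference from N1c was 0.41 ± 0.13 (SE, n = 3 and 4, 95% interval 0.14 to 0.68, adjusted p = 0.0546), which missed the threshold. It passed after quantile normalization (0.54, adjusted p = 0.00827) and after cyclic loess (0.54, adjusted p = 0.00865). These scalings moved the median difference of the 9876 brighter genes to about 0 (-0.00418 after quantile and -0.000313 after loess normalization), against -0.09 in the values as deposited. It also passed without N1c replicate 5 (0.44, adjusted p = 0.0475), among the brighter genes alone (adjusted p = 0.0494) and with N1c_RBPJdel replicate 2 alone (0.70, adjusted p = 0.0260). Without that array, replicate 2, the difference was 0.26 (adjusted p = 0.163). With the replicate block in a fit of the 2 groups, which share only replicate numbers 1 and 2, adjusted p was 0.249. The difference passed under 5 of the 27 other settings and missed under 22.

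The other Ikzf4 differences were not called. N1c_RBPJdel against control gave -0.19 (95% interval -0.46 to 0.08), N1c_RBPJdel against RBPJdel gave -0.24 (95% interval -0.51 to 0.03) and RBPJdel against control gave 0.06 (95% interval -0.19 to 0.31). The interaction term of Ikzf4 was 0.35 (95% interval -0.02 to 0.71, adjusted p = 0.417), so an N1c effect that differs with the deletion was not shown for this gene. The order of levels was the same as for Nrp1, from RBPJdel through control and N1c_RBPJdel to N1c, and no step in it between neighbours was called.

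Ikzf2, on chromosome 1 (transcript cluster 10355312, gene span 69531207 to 69687351), was called in none of the 7 comparisons. Its intensities were 2142, 2505, 2299 and 2548 on the N1c arrays, against 2868, 3254, 2530 and 3048 on the control arrays. The groups overlapped, as the lowest control array lay below the highest N1c array. The log2 difference was -0.30 ± 0.12 (SE, n = 4 each, 95% interval -0.56 to -0.04, adjusted p = 0.430), a change of 1.23-fold, and adjusted p lay between 0.0910 and 0.832 over the 27 other settings. The unadjusted interval does not include 0, so a small fall of Helios transcript is within what these arrays allow and was not called among all genes.

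On the N1c_RBPJdel arrays Ikzf2 had intensities of 2529, 2213 and 2818, and on the RBPJdel arrays it had 2943, 2992, 3052 and 2160. The last of these, RBPJdel replicate 4, stood well below the other 3. The log2 differences were 0.08 (95% interval -0.19 to 0.36) for N1c_RBPJdel against N1c, -0.22 (95% interval -0.49 to 0.06) for N1c_RBPJdel against control and -0.08 (95% interval -0.33 to 0.18) for RBPJdel against control. They were -0.14 for N1c_RBPJdel against RBPJdel and -0.22 for N1c against RBPJdel, and the interaction was 0.16 (95% interval -0.22 to 0.54). In the order of levels, from control through RBPJdel and N1c_RBPJdel to N1c, no neighbours differed beyond their spread.

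**Figure D3:**
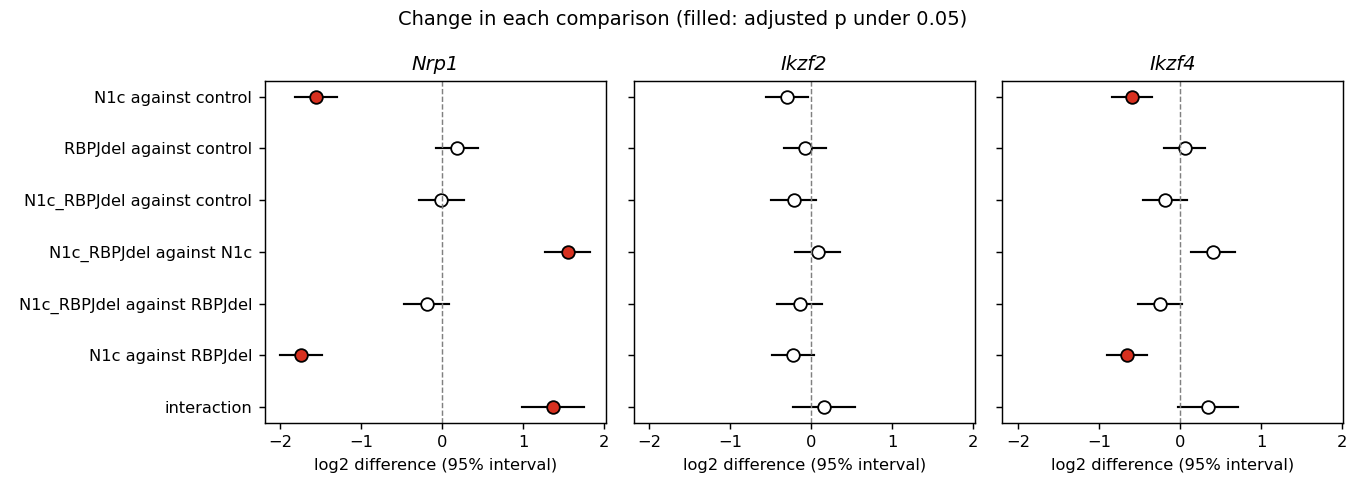
Log2 difference (point) with its unadjusted 95% interval (line) for Nrp1, Ikzf2 and Ikzf4 in each of the 7 comparisons, filled where adjusted p over all genes was under 0.05. Nrp1 was called in 4 comparisons, Ikzf4 in 2 and Ikzf2 in 0.

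Whether 2 of the genes changed by different amounts was tested on their log2 difference within each array, with an exact two-sided permutation test over arrays for 3 pairs of genes and 6 comparisons. Nrp1 minus Ikzf2 was -2.36 in N1c and -1.10 in control arrays, so that Nrp1 fell by 1.26 more than Ikzf2, and no N1c array overlapped a control array (exact p = 0.0286). Nrp1 minus Ikzf4 was 0.06 in N1c and 1.03 in control arrays, a difference of -0.97 without overlap (exact p = 0.0286). Ikzf4 minus Ikzf2 was -2.42 in N1c and -2.13 in control arrays, a difference of -0.29 (exact p = 0.0571).

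For 4 against 4 arrays 0.0286 is the smallest p the permutations can give, and for 3 against 4 it is 0.0571. After adjustment over the 18 tests the first 2 stood at 0.103 and the last at 0.129. No adjusted p could have passed 0.05 in this design, since the smallest possible over the 18 exact tests is 0.0571. Against RBPJdel the N1c differences were -1.52 for Nrp1 minus Ikzf2, -1.09 for Nrp1 minus Ikzf4 and -0.43 for Ikzf4 minus Ikzf2, each at the smallest p of 0.0286 and an adjusted p of 0.103. For N1c_RBPJdel against N1c they were 1.47, 1.14 and 0.32, with exact p of 0.0571, 0.0571 and 0.343.

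Genes with profiles like those of Nrp1 and Ikzf4 were chosen by the root mean square difference of centred log2 values over the 15 arrays, among 9365 genes of at least median brightness. Nearest to Nrp1, whose own profile had a root mean square of 0.737, was Itgb1, the integrin beta 1 chain, at 0.219. Next came Il18r1 at 0.276, a chain of the interleukin 18 receptor, then Flicr at 0.279, a non-coding RNA next to Foxp3. Ctsw, a lymphocyte cathepsin, stood at 0.280 and Ms4a4c at 0.291. These genes were chosen by their values, which are therefore given as a description.

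Itgb1 had a geometric mean of 1003 in N1c_RBPJdel, 405 in N1c, 1058 in RBPJdel and 868 in control arrays. Il18r1 lay at 799, 285, 938 and 637 in the same order, and Ctsw at 631, 198, 691 and 462. Flicr lay at 656, 319, 963 and 773, and Ms4a4c at 727, 388, 1071 and 1115. All 5 were lowest in N1c, and Flicr and Ms4a4c stood in N1c_RBPJdel below both RBPJdel and control.

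The most opposite profiles were those of Dsp, Fasl and Dennd2d. Dsp, which encodes the desmosome protein desmoplakin, had geometric means of 95.5 in N1c_RBPJdel, 255 in N1c, 92.7 in RBPJdel and 91.9 in control arrays. Fasl, the ligand of the death receptor Fas, lay at 97.1, 261, 80.5 and 91.1, and Dennd2d at 854, 2557, 787 and 1078 in the same order. Each of the 3 was highest in N1c.

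Ikzf4, with a profile of smaller spread (root mean square 0.300), had Grik5, Irak2, Plcb3, Mapk12 and Gtf2ird1 as its nearest genes, at 0.135 to 0.150. Grik5 encodes a glutamate receptor subunit, Irak2 a kinase of interleukin 1 receptor signalling, Plcb3 a phospholipase C and Mapk12 a p38 kinase. Irak2 lay at 413 in N1c_RBPJdel, 321 in N1c, 457 in RBPJdel and 464 in control arrays, and Plcb3 at 308, 223, 355 and 324. The most opposite were Cd226, an activating receptor, Syce2 and Pon2, at 0.157 to 0.172. Relative to the spread of the gene itself these distances are larger than those of the genes nearest to Nrp1.

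**Figure D4:**
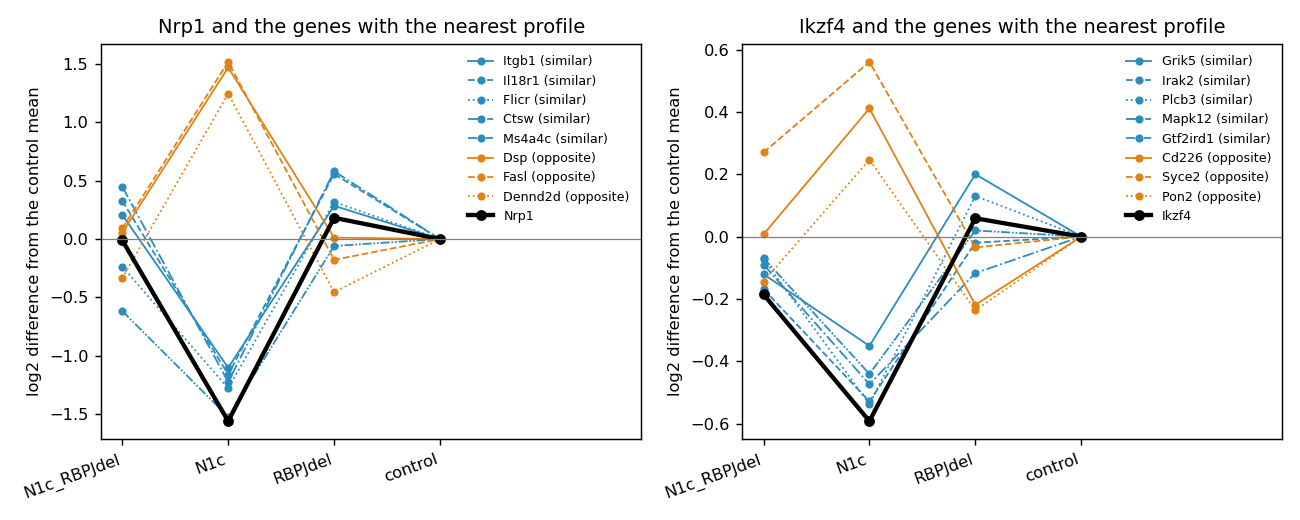
Group means of Nrp1 (left) and Ikzf4 (right), in black, and of their 5 most similar (blue) and 3 most opposite genes (orange), as log2 differences from the control mean in N1c_RBPJdel, N1c, RBPJdel and control arrays. In the left panel the similar genes have their lowest mean in N1c, at -1.10 to -1.52 beside Nrp1 at -1.56.

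Among the partners of neuropilin 1, 31 of 32 listed semaphorins, plexins, VEGF ligands, VEGF receptors and adaptors were measured. In N1c against control 2 were called higher and 2 lower, where 0.937% of all genes were called higher and 0.714% lower. The list median was -0.02 beside -0.01 over all genes. Nrp2, the other neuropilin, was not called in any comparison and had geometric means of 82.3 in N1c_RBPJdel, 78.8 in N1c, 100.7 in RBPJdel and 93.8 in control arrays. The counts ranged from 0 to 3 higher and 0 to 2 lower over the settings.

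Plxnd1, a plexin receptor for semaphorins, was higher in N1c at 646, against 336 in control arrays (log2 difference 0.94 ± 0.21, adjusted p = 0.021), and Sema7a, a membrane-bound semaphorin, at 154 against 96.8 (0.67 ± 0.14, adjusted p = 0.018). Plxna3, a plexin that works with neuropilins, was lower at 90.6 against 136 (-0.59 ± 0.13, adjusted p = 0.024), and Sema4a at 186 against 277 (-0.58 ± 0.14, adjusted p = 0.041). Each call was lost when single arrays were left out. For Plxnd1 these were N1c replicates 1 and 2 and control replicates 2 and 5 (adjusted p up to 0.0856), and for Sema7a N1c replicates 2 and 5 and control replicates 2 and 4 (up to 0.0815). The Plxna3 call was also lost in the paired fit, with the replicate block of the 2 groups (adjusted p = 0.0798). For Plxna3 the arrays were N1c replicates 1, 2 and 4 and control replicates 2, 3 and 4 (up to 0.109), and for Sema4a N1c replicates 1, 2 and 5, RBPJdel replicates 1, 2 and 3 and control replicates 2, 3 and 4 (up to 0.168).

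In N1c_RBPJdel against N1c 4 genes of this list were called higher and 1 lower, where 4.58% of all genes were called higher and 4.65% lower. Plxna3 was higher in N1c_RBPJdel at 143, against 90.6 in N1c arrays (0.66 ± 0.14, adjusted p = 0.008), and Sema7a was lower at 94.8 against 154 (-0.70 ± 0.15, adjusted p = 0.010). Both calls held when any single array was left out. They were lost with the replicate block in a fit of the 2 groups, which share only replicate numbers 1 and 2. Sema6d differed from this pattern, at 63.7 in N1c_RBPJdel, 43.5 in N1c, 69.8 in RBPJdel and 43.8 in control arrays. It was higher in both groups with the deletion, by 0.54 ± 0.12 in N1c_RBPJdel against control (adjusted p = 0.012) and by 0.67 ± 0.11 in RBPJdel against control (adjusted p = 0.010). All Sema6d arrays, at 40.5 to 79.1, stayed below the array medians. The RBPJdel call was lost without RBPJdel replicate 2 or 4 or control replicate 2 or 3 (adjusted p up to 0.0639). The interaction was called for 0 of the 31 genes, with 5 at an unadjusted p under 0.05, a level that 12.9% of all genes reached.

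The other Ikaros family genes measured were Ikzf1 (Ikaros), Ikzf3 (Aiolos) and Ikzf5 (Pegasus). None was called in N1c against control or in RBPJdel against control. Ikzf1 had intensities around 1342 in N1c_RBPJdel, 2226 in N1c, 1961 in RBPJdel and 2015 in control arrays, and Ikzf3 around 1373, 1904, 1890 and 2070. In N1c_RBPJdel they were lower than in N1c with log2 differences of -0.73 ± 0.13 for Ikzf1 (adjusted p = 0.003) and -0.47 ± 0.13 for Ikzf3 (adjusted p = 0.027), opposite in direction to Nrp1. Both calls were lost with N1c_RBPJdel replicate 2 alone and with the replicate block of the 2 groups, and that of Ikzf3 also without N1c_RBPJdel replicate 1 or 3 or N1c replicate 1 or 2 (adjusted p up to 0.151). In that block fit the 2 groups share only replicate numbers 1 and 2. After quantile and cyclic loess normalization, under which Ikzf4 was called, Ikzf3 was not (adjusted p = 0.118 and 0.114). Ikzf5 was called nowhere.

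Of 13 factors known to act with Foxp3, 2 were called higher in N1c against control and 0 lower (list median 0.04). Over all genes 0.937% were called higher and 0.714% lower. Lef1, a factor of T cell development, had 3191 in N1c and 2362 in control arrays, a difference of 0.43 ± 0.10 (adjusted p = 0.036), and Runx3 a difference of 0.75 ± 0.17 (adjusted p = 0.032). Each of these 2 calls was lost without any 1 of 6 arrays, and adjusted p then reached 0.152 for Lef1 and 0.126 for Runx3. In the paired fit, with the replicate block of the 2 groups, the Lef1 call was lost too (adjusted p = 0.0785). The arrays were for Lef1 N1c replicates 1 and 5, RBPJdel replicate 3 and control replicates 2, 3 and 4, and for Runx3 N1c replicates 1, 4 and 5 and control replicates 2, 3 and 4.

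In N1c_RBPJdel against N1c 3 of the 13 were called lower, where 4.65% of all genes were. This count ranged from 0 to 6 over the settings, and the call of 1 of the 3, Cbfb, was lost under 15 of the 27 other settings. Satb1, a chromatin organiser, was at 1262 in N1c_RBPJdel, 2114 in N1c, 1952 in RBPJdel and 2708 in control arrays, and its difference from control, -1.10 ± 0.11, was called in N1c_RBPJdel under all 27 settings. Of 17 genes of the NuRD, CtBP and Sin3 corepressors, through which Ikaros family proteins act, 0 were called in N1c against control by limma, with 1 at an unadjusted p under 0.05, a level that 8.21% of all genes reached. In N1c_RBPJdel against control 3 of them were called lower, where 5.12% of all genes were, and 0 were called with N1c_RBPJdel replicate 2 alone.

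In N1c against control, where 1.65% of all genes were called, 1 of 17 other genes typical of Treg was called. This was Socs2, a suppressor of cytokine signalling, at -0.60 ± 0.14 (adjusted p = 0.039), a call lost without any 1 of 10 arrays (N1c_RBPJdel replicate 3, N1c replicates 1, 4 and 5, RBPJdel replicates 2 and 3, and all 4 control arrays, adjusted p up to 0.137). In N1c_RBPJdel against N1c 6 of the 17 were called higher and 0 lower, where 4.58% of all genes were called higher. Among the 6 were Pdcd1, the inhibitory receptor PD-1, by 0.87 ± 0.20 and Tnfrsf4, the costimulatory receptor OX40, by 0.48 ± 0.09. That count ranged from 0 to 6 over the settings and was 2 with N1c_RBPJdel replicate 2 alone. The list median in this comparison was -0.07, against 0.02 over all genes.

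Of 3 measured genes that mark Treg of peripheral origin, 0 were called in N1c against control by limma, with 2 at an unadjusted p under 0.05, where 8.21% of all genes were. Maf, a transcription factor, lay at 934 in N1c_RBPJdel, 1350 in N1c, 734 in RBPJdel and 902.5 in control arrays, and Igfbp4 at 369, 308, 737 and 519.8. Against RBPJdel, the log2 difference of N1c was 0.88 for Maf and -1.26 for Igfbp4, and both calls held in every setting. Dapl1 was called nowhere.

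Of 11 measured cytokines listed as silenced in Treg, 1 was called higher in N1c against control, and 0 were called lower. Over all genes 0.937% were called higher and 0.714% lower. Il4 had a geometric mean of 80.9 in N1c and 56.1 in control arrays, a difference of 0.53 ± 0.12 (adjusted p = 0.023), and all its arrays stayed below the array medians. The call was lost without N1c replicate 1 or 5 or control replicate 2, 3 or 4 (adjusted p up to 0.0977), and in the paired fit with the replicate block of the 2 groups (adjusted p = 0.0840). In N1c_RBPJdel it was lower than in N1c, with a difference of -0.56 ± 0.13 (adjusted p = 0.011), a call lost without N1c_RBPJdel replicate 1 (adjusted p = 0.0517). The other 10 cytokines, among them those of the interferon and interleukin 17 families, were not called in N1c against control. Not all of the list was near the floor. Tnf lay above the array medians on every array, with geometric means of 417 in N1c_RBPJdel, 585 in N1c, 623 in RBPJdel and 502 in control arrays. Ifng lay at 155, 228, 128 and 151 in the same order.

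**Figure D5:**
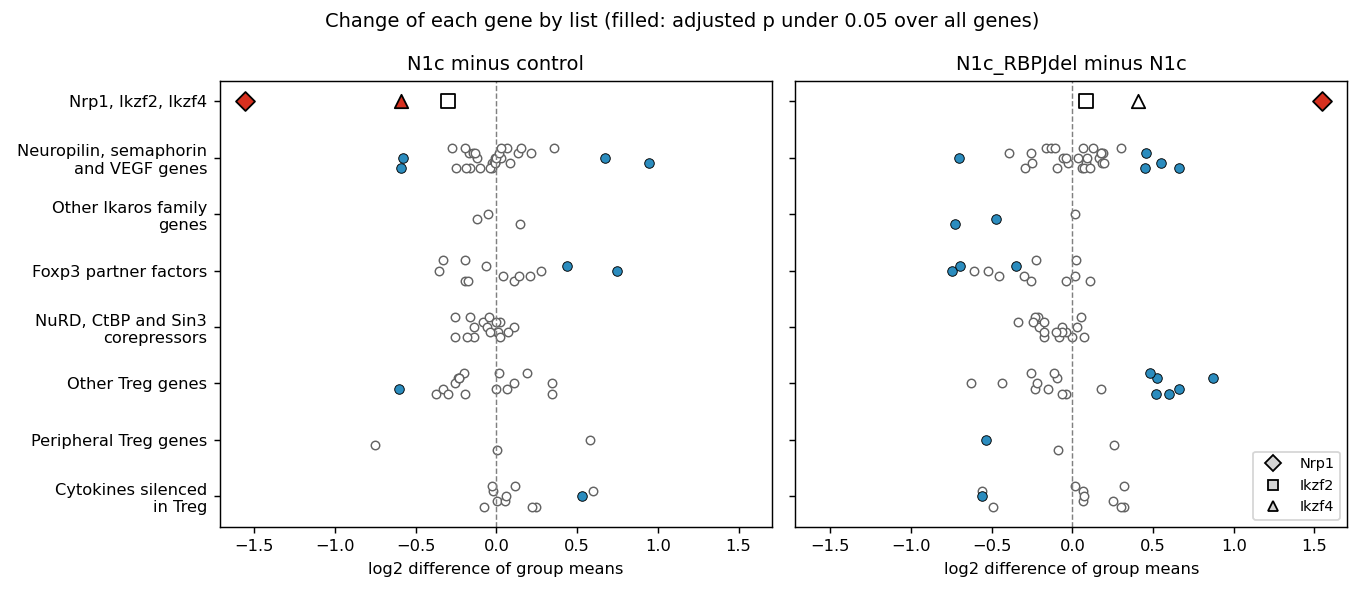
Log2 difference of each measured gene by list (circles) and of the 3 members (diamond, square and triangle) in N1c minus control (left) and N1c_RBPJdel minus N1c (right), filled where adjusted p was under 0.05. In both panels Nrp1 lies further from 0 than every gene of the 7 lists.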

How the data were processed

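The deposited values are linear intensities. The authors used RMA and Affymetrix Power Tools to obtain them, as the submitters' processing notes say. Versions and the annotation release were not given in the sources used here. This deposited matrix held 24922 transcript clusters on 15 arrays, with values from 5.61 to 18029.7, and log2 was taken. Of these, 21425 named 1 gene and 2098 none, and the brightest cluster of each gene was kept, which left 19752 genes with no filter on intensity.

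A mean per group was fitted with limma 3.58.1 in R 4.3.3 (lmFit and eBayes, 11 residual degrees of freedom), with two-sided p-values adjusted by Benjamini-Hochberg. These p-values cover only the spread between arrays, each of pooled mice, and the number of arrays limits the precision. Members and lists were chosen with earlier results of these data known. Named genes were the members, checks of the labels, all genes of short lists, up to 4 called genes of each longer list by smallest p, and the genes of nearest and most opposite profile. Nrp2 was named outside this rule, after its values were seen.

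Same-numbered N1c and control arrays had residual correlations of 0.417, 0.341 and 0.497 (numbers 2, 4 and 5), which was taken as pairing for these 2 groups alone. Number 4 also reached 0.457 between N1c and RBPJdel and 0.417 between RBPJdel and control. The other numbers shared by those groups gave 0.0711 to 0.166. The main fit and the exact permutation tests used no pairing, and the block fits show the calls with it. N1c_RBPJdel and N1c share only numbers 1 and 2, with correlations of -0.12 and 0.06. Their block fit therefore compares those arrays alone, and a call lost in it does not show that the call is unstable. The alternatives were 2 normalizations, a pseudocount of 16, gene filters, array weights, variance trend, smaller fits, replicate blocks and leaving out each array.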

Additional observations from a re-analysis of the deposited data

Results flagged for a closer look

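Ikzf2 on RBPJdel replicate 4 had an intensity of 2160, against 2943, 2992 and 3052 on the other 3 arrays of its group. Its gap to the nearest of them was 0.894 of the range of the group on the log2 scale, above Dixon's 95% critical value for 4 arrays. Of the 9 groups of 4 arrays tested in this way this was the only one past the critical value, and chance flags about 1 in 20 groups. Without this array the difference of RBPJdel from control was 0.04 for Ikzf2, against -0.08 with it, and neither was called.

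The N1c difference of Nrp1 was unlike between arrays with and without the deletion of Rbpj. The interaction term was 1.37 (adjusted p = 0.000974), and the N1c difference was -0.19 among arrays with the deletion and -1.56 among those without it. Sorter and genotype cannot be told apart in this term, which includes N1c_RBPJdel.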

How the results depend on the processing

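The 7 results of each of the 3 genes gave 561 values under 27 other settings (25 for the interaction). Of these, 553 had the direction, where called, and the side of the threshold of the main fit, and the 8 exceptions were all of Ikzf4. In N1c against control it was no longer called with the replicate block in a fit of the 2 groups (-0.57), and leaving out single arrays gave -0.64 to -0.52. In N1c_RBPJdel against N1c it was called after quantile (0.54) and cyclic loess normalization (0.54), among brighter genes alone (0.41) and with N1c_RBPJdel replicate 2 alone (0.70), and leaving out single arrays gave 0.26 to 0.48. The cause was not tested. With the replicate block over all groups Ikzf4 stood at -0.60 in N1c against control (adjusted p = 0.0189), and neither replicate block changed another call of the 3 genes. The adjusted tests of unequal change of 2 members could not pass 0.05 under any setting, so their 288 values say nothing about stability. Of 3075 values for other named genes 435 lost a call and 0 turned round, and 329 of 2618 counts over lists moved.

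The number of genes called ranged widely. It was 217 to 733 for N1c against control (326 in the main fit), 17 to 189 for RBPJdel against control (22) and 406 to 3767 for N1c_RBPJdel against control (1757). It was 368 to 3699 for N1c_RBPJdel against N1c (1823), 76 to 2107 for N1c_RBPJdel against RBPJdel (452), 332 to 1017 for N1c against RBPJdel (494) and 101 to 632 for the interaction (166).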
